A study of Mus musculus with 24 samples.

Results

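The genes described here are 7 transcripts of the thick ascending limb of the loop of Henle, Umod, Slc12a1, Kcnj1, Bsnd, Casr, Cdh16 and Ppp1r1a, taken by symbol from a table of 54532 genes. Each symbol matched 1 row, and all 7 passed the filter on low expression (average log2 CPM no lower than -3), as did 22570 genes in all. CPM is the count of a gene scaled to a library of 1000000 counts.

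The thick ascending limb takes sodium chloride out of the tubule fluid without letting water follow, which dilutes the urine and builds the salt gradient of the medulla. Salt enters the cell across its luminal side with potassium, potassium returns to the lumen through a channel, and chloride leaves across the basolateral side, which makes the lumen positive and drives calcium and magnesium between the cells. The same cells make uromodulin, the most abundant protein of normal urine.

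RNA was sequenced from whole kidneys of 24 mice aged 18 days, of strain C57BL/6 by the labels and C57BL/6 J by the study's methods, in 6 groups, to ask how the transcriptome of a Pkd1 model of polycystic kidney disease responds when the miR-17 binding motif is removed from the Pkd1 3′ UTR. All mice had a floxed Pkd1 allele and, on the other chromosome, the missense allele RC, which lowers mature polycystin-1. In the control genotype, RC/+, no Cre was present and the floxed allele stayed intact, whereas in the cystic genotype, RC/-, Cre under the promoter of Cdh16 (Ksp-cadherin) inactivated it. In the D18 and D53 lines the motif was deleted from the RC allele itself, and each line descends from 1 edited founder, founder 3 for D18 and founder 2 for D53. The founder of the unedited RC/+ and RC/- mice is not given in the sources used here. The study describes the cystic disease of founder 2 progeny as aggressive. There were 3 RC/+ mice (mice 4 to 6), 3 RC/+ D18 mice (7 to 9) and 3 RC/+ D53 mice (10 to 12), and 5 RC/- mice (13 to 17), 5 RC/- D18 mice (18 to 22) and 5 RC/- D53 mice (23 to 27). Cre was present in every RC/- mouse and in no RC/+ mouse, so Cre and the cystic genotype cannot be told apart, and the gene whose promoter drives Cre, Cdh16, is itself 1 of the 7.

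Library totals ran from 20.4 M to 30.8 M counts. Those of mice 20 to 27 ran from 24.6 M to 30.8 M, and those of the other mice from 20.4 M to 26.6 M. Pkd1 was at 38.4 to 71.4 CPM over the 24 libraries, and a count over the whole gene does not check the RC allele, the motif or the floxed exons. The 8 libraries of mice 20 to 27 held transcripts of skeletal muscle, with 6 muscle genes summing to 147 to 194 CPM against 5.27 to 9.36 CPM in the others. These are 3 of the 5 RC/- D18 libraries and all RC/- D53 libraries, and comparisons of these groups with RC/- are also given without mice 20 to 22 or with a term for mice 20 to 27, where such a value could be had. The defining markers of the limb were present at high level: in RC/+ kidneys Slc12a1 ranked 19 and Umod 28 of all genes by mean CPM.

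Umod (ENSMUSG00000030963) lies on the minus strand of chromosome 7 at 119462711 to 119479282 of GRCm38 and encodes uromodulin. Slc12a1 (ENSMUSG00000027202, chromosome 2, 125152505 to 125230002, plus strand) encodes the sodium-potassium-chloride cotransporter that loop diuretics block. Kcnj1 (ENSMUSG00000041248, chromosome 9, 32372493 to 32399197, plus strand) encodes the luminal potassium channel ROMK, also found in the distal nephron and collecting duct. Bsnd (ENSMUSG00000025418, chromosome 4, 106483456 to 106492283, minus strand) encodes barttin, the subunit that basolateral chloride channels need. Casr (ENSMUSG00000051980, chromosome 16, 36493696 to 36562141, minus strand) encodes the calcium-sensing receptor, which restrains calcium reabsorption. Ppp1r1a (ENSMUSG00000022490, chromosome 15, 103530279 to 103538003, minus strand) encodes an inhibitor of protein phosphatase 1 that is active when phosphorylated by protein kinase A. Cdh16 (ENSMUSG00000031881, chromosome 8, 104601911 to 104624396, minus strand) encodes Ksp-cadherin, an adhesion protein of tubule epithelium that is not limited to the limb. Of the exon bases of Umod, 19.5% are shared with Gm44588 on the other strand, which had at most 1 count in any library, and the other 6 genes share none with another gene.

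Per kilobase of exon, the order of levels in RC/+ kidneys was Umod at 602 ± 32.2 CPM per kb (SD, n = 3), Slc12a1 at 413 ± 26.3, Cdh16 at 385 ± 6.77, Ppp1r1a at 228 ± 26.4, Kcnj1 at 89.6 ± 12.1, Bsnd at 50.4 ± 2.27 and Casr at 10.1 ± 0.39. Slc12a1 and Cdh16 overlapped between libraries, and the other neighbours in the order did not. In RC/- kidneys Cdh16 came first at 456 ± 54.1 CPM per kb (SD, n = 5), then Umod at 379 ± 71.8, Slc12a1 at 192 ± 71.8, Ppp1r1a at 85.4 ± 41.3, Kcnj1 at 84.5 ± 13.9, Bsnd at 29.0 ± 11.8 and Casr at 3.94 ± 1.004. There Cdh16 overlapped Umod, and Ppp1r1a overlapped both Slc12a1 and Kcnj1. Together the 7 genes took 0.361% to 0.559% of all counts in RC/- libraries and 0.465% to 0.738% in the libraries of the other groups.

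The first comparison, RC/- against RC/+, asked which limb genes differed with cystic disease while the motif was intact. Of the 7, 5 were lower (Ppp1r1a, Casr, Slc12a1, Bsnd and Umod), 1 was higher (Cdh16), and Kcnj1 did not pass the test. Lower levels ranged from 0.342 of the control level for Ppp1r1a to 0.622 for Umod. Over all genes tested 37.6% were called, 12.2% lower and 25.5% higher, at an adjusted p below 0.05. The median log2 fold change was -0.89 over the 7 genes and 0.14 over all genes. In whole-kidney RNA, fewer cells of a type and less RNA per cell cannot be told apart.

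Umod, the secreted product, stood at 1664, 1752 and 1575 CPM in the RC/+ mice and at 999, 1343, 1125, 956 and 817 CPM in the RC/- mice. Every cystic kidney was below every control, and the fold change on the log2 scale was -0.69 ± 0.15 (SE) with an adjusted p of 0.000775.

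Slc12a1, which carries salt into the cell, stood at 2414, 2510 and 2213 CPM in the RC/+ mice and at 1476, 1635, 876, 794 and 762 CPM in the RC/- mice. The groups did not overlap, and RC/- mice 13 and 14 kept more of the transcript than mice 15 to 17. The log2 fold change was -1.18 ± 0.22 (SE, adjusted p = 0.000145).

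Kcnj1, the channel that returns potassium to the lumen for the same transport cycle, stood at 299, 339 and 258 CPM in the RC/+ mice and at 238, 330, 315, 298 and 227 CPM in the RC/- mice. The groups overlapped, and the log2 fold change was -0.09 ± 0.16 (SE, adjusted p = 0.694).

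Bsnd, on the chloride exit path, stood at 144, 132 and 141 CPM in the RC/+ mice and at 109, 121, 63.5, 50.2 and 56.1 CPM in the RC/- mice. The groups did not overlap, and mice 13 and 14 again lay above mice 15 to 17. The log2 fold change was -0.89 ± 0.19 (SE, adjusted p = 0.000553).

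Casr, the receptor, was the least abundant of the 7, at 48.6, 48.6 and 45.4 CPM in the RC/+ mice and 23.8, 17.4, 18.2, 11.5 and 21.9 CPM in the RC/- mice. The groups did not overlap, mouse 14 lay with the low mice here, and the log2 fold change was -1.39 ± 0.22 (SE, adjusted p = 2.17e-05).

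Ppp1r1a, the phosphatase inhibitor, stood at 300.0, 331 and 262 CPM in the RC/+ mice and at 141, 189, 87.5, 87.7 and 52.1 CPM in the RC/- mice. It had the largest fold change of the 7 in this comparison, -1.55 ± 0.25 on the log2 scale (SE, adjusted p = 2.52e-05), and the groups did not overlap. Over all genes tested 37.6% had groups that did not overlap in this comparison and 11.6% were lower without overlap, against 5 of the 7.

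Cdh16, the cadherin, stood at 1433, 1483 and 1467 CPM in the RC/+ mice and at 1847, 1954, 1761, 1414 and 1670 CPM in the RC/- mice. Of the 5 RC/- mice 4 lay above every control and mouse 16 lay below every control, the fold change being 0.23 ± 0.09 on the log2 scale (SE, adjusted p = 0.0347). This call depended on the scaling: with TMM factors, which moved the median over all genes from 0.14 to 0.01, the change was 0.09 with an adjusted p of 0.466. It was also not called without any 1 of mice 4, 5, 6, 13, 14 or 15, at 0.19 to 0.25 with adjusted p from 0.0604 to 0.103. All genes called split into 5753 higher and 2744 lower by total counts and into 3844 higher and 3896 lower with TMM factors. The 5 genes that fell were called in the same direction with TMM factors and with DESeq2 size factors.

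**Figure D1:**
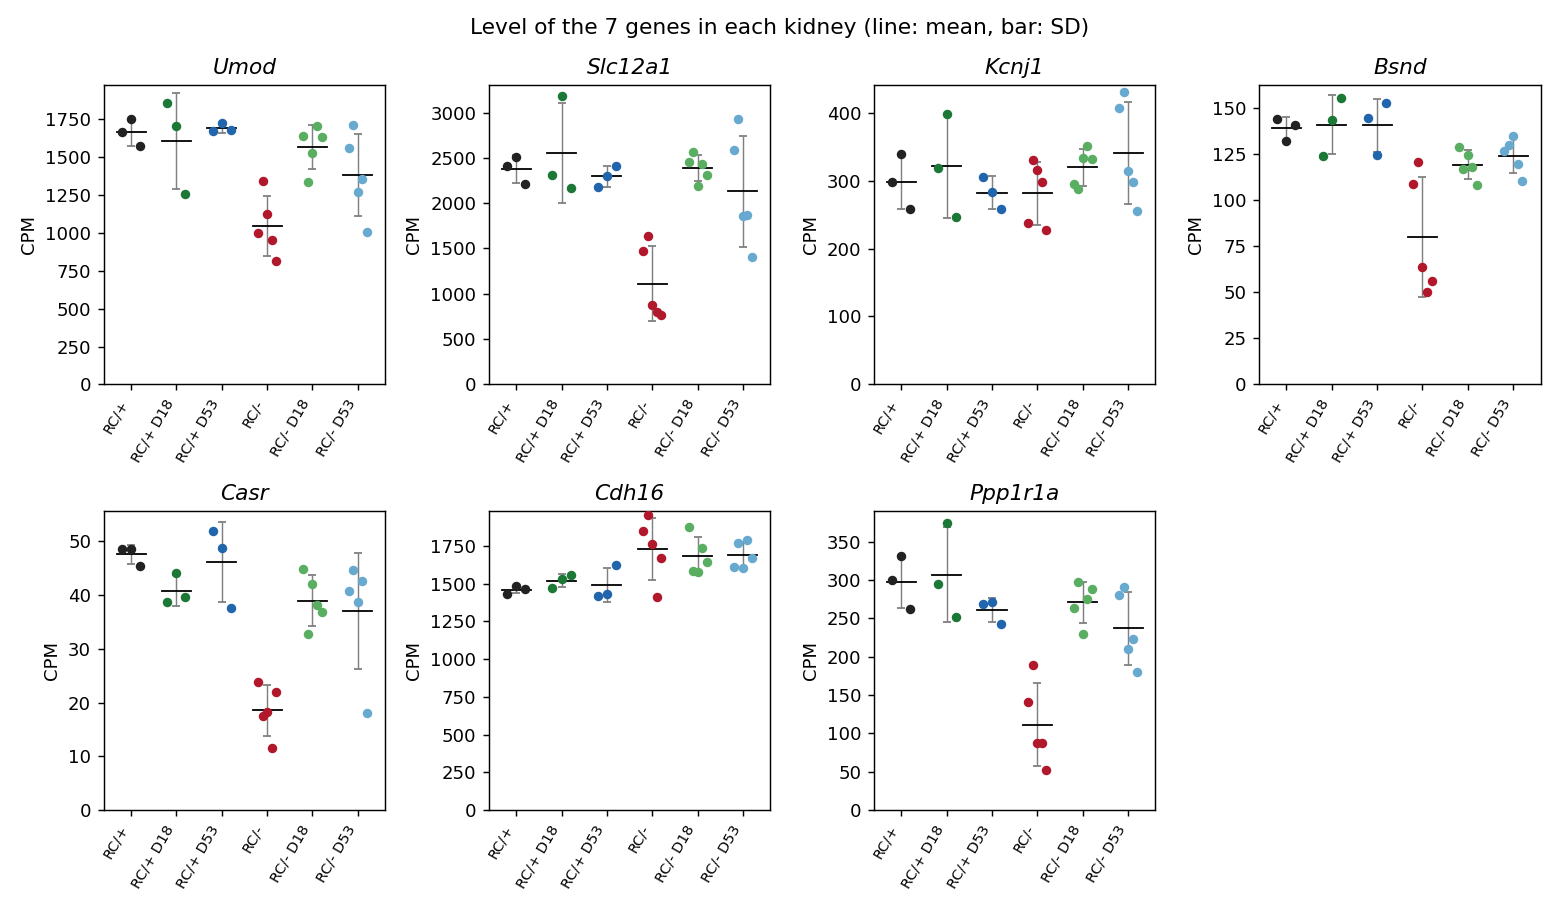
CPM (y axis, from 0) of each of the 7 genes in each kidney (points) for the 6 groups, with the group mean (line) and SD (bar). Slc12a1 ranged from 762 to 1635 CPM in the 5 RC/- kidneys and from 2213 to 2510 CPM in the 3 RC/+ kidneys, whereas Kcnj1 overlapped between these groups.

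Markers of other cells moved with the same comparison. All 12 macrophage genes were higher in RC/- and summed to 640 to 1160 CPM against 297 to 319 CPM in RC/+. Of 10 fibroblast and matrix genes 8 were higher, with a sum of 4113 to 6523 CPM against 1732 to 2375 CPM. All 12 proximal tubule genes were lower, with a sum of 2549 to 5817 CPM against 10298 to 11186 CPM, and none of these markers was at 0 in a whole group. The share of counts from mitochondrial genes was 3.16% to 4.05% in RC/- against 5.93% to 6.55% in RC/+, and that of the 20 most abundant genes 7.002% to 7.81% against 11.4% to 12.4%. The part of these cells and shares in the levels of the 7 genes was not tested.

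A ratio of 2 counts within a library does not depend on how the library is scaled, so each gene was also set against Slc12a1. The log2 ratio of Cdh16 to Slc12a1 was -0.75, -0.76 and -0.59 in the RC/+ mice and 0.32, 0.26, 1.01, 0.83 and 1.13 in the RC/- mice. That of Kcnj1 to Slc12a1 was -3.02, -2.89 and -3.10 in the RC/+ mice and -2.63, -2.31, -1.47, -1.42 and -1.74 in the RC/- mice. Neither pair of groups overlapped, and the differences of means were 1.41 for Cdh16 and 1.09 for Kcnj1. The ratio of Ppp1r1a to Slc12a1 was lower by 0.37 on the log2 scale in RC/-, -3.37 ± 0.30 (SD, n = 5) against -3.002 ± 0.078 (SD, n = 3), also without overlap. Each of these 3 differences had p = 0.0357 in a two-sided exact permutation test, the smallest that 5 against 3 can give, and 0.0643 after adjustment over 18 ratio tests, so none passed. The ratios of Umod, Bsnd and Casr overlapped between the groups, with adjusted p of 0.184, 0.117 and 0.723 in the same exact test.

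**Figure D2:**
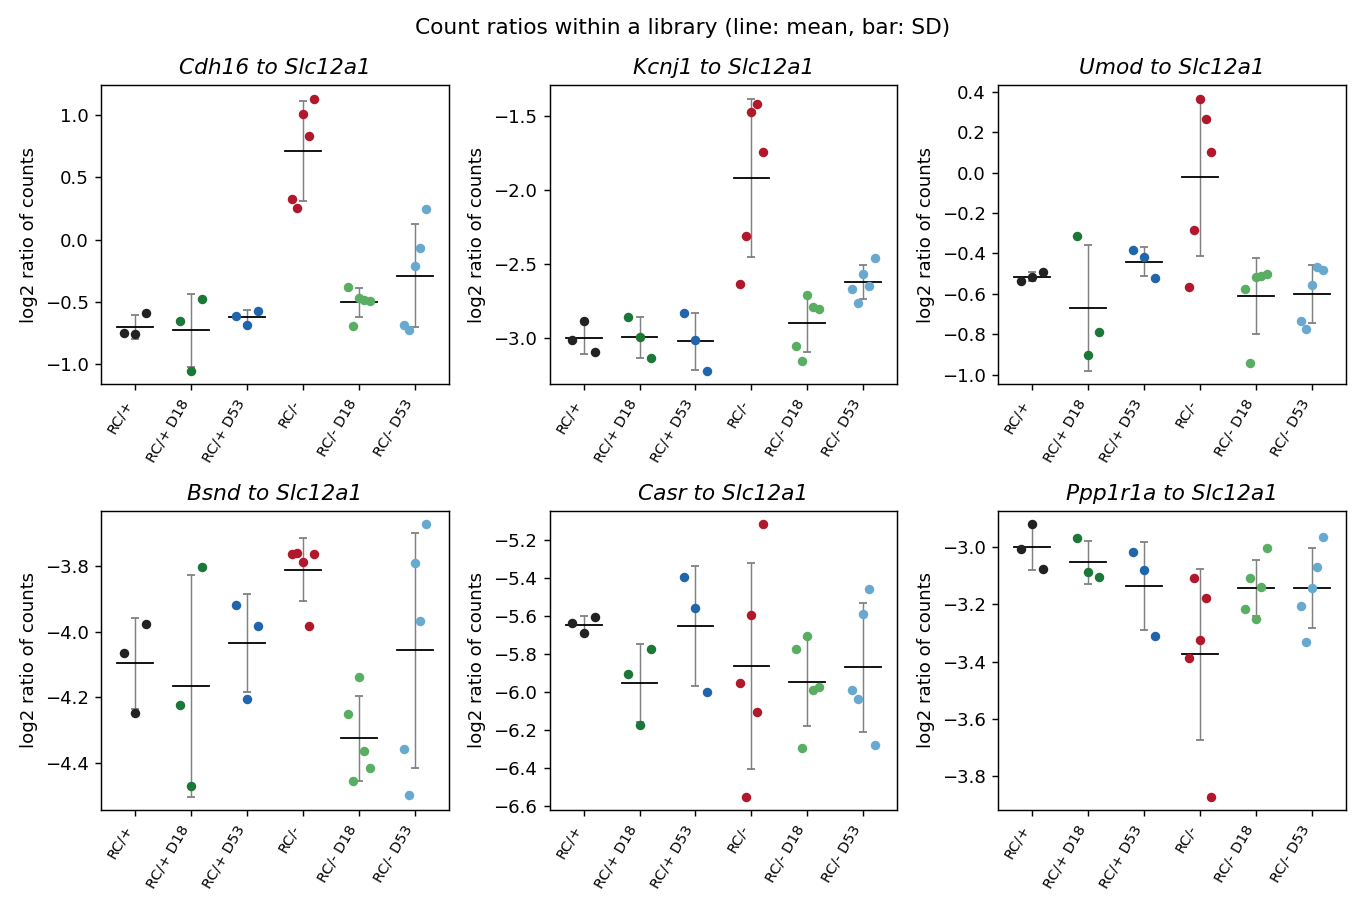
Log2 ratio of each gene's count to that of Slc12a1 in each kidney (y axis, points) for the 6 groups, with the group mean (line) and SD (bar). The RC/- kidneys lay above the RC/+ kidneys for Cdh16 and Kcnj1, by 1.41 and 1.09 in group means.

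The next comparisons asked what the motif deletion changed within the cystic genotype, and both use the same 5 RC/- kidneys as their reference. The founder of these RC/- mice is not given, so founder line and motif deletion cannot be told apart. In RC/- D18 kidneys 5 of the 7 genes were higher than in RC/-, Ppp1r1a, Slc12a1, Casr, Bsnd and Umod, and Kcnj1 and Cdh16 did not pass the test. Over all genes 41.2% were called in this comparison and 14.3% were higher. In RC/- D53 kidneys the test also called these 5 higher, where 30.2% of all genes were called and 11.3% were higher. The median log2 fold change was 0.67 over the 7 genes and -0.10 over all genes for D18, and 0.73 and -0.08 for D53.

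Ppp1r1a stood at 264, 298, 230, 276 and 288 CPM in RC/- D18 and at 281, 291, 211, 223 and 181 CPM in RC/- D53. All D18 kidneys and 4 of 5 D53 kidneys lay above every RC/- kidney. The log2 fold changes were 1.41 ± 0.22 for D18 (SE, adjusted p = 1.09e-05) and 1.20 ± 0.22 for D53 (SE, adjusted p = 0.000143).

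Slc12a1 stood at 2450, 2565, 2186, 2428 and 2313 CPM in RC/- D18 and at 2591, 2930, 1861, 1871 and 1409 CPM in RC/- D53. All D18 kidneys lay above every RC/- kidney, and mouse 27 of D53 lay below the highest of them. The log2 fold changes were 1.18 ± 0.19 (SE, adjusted p = 2.09e-05) and 0.97 ± 0.19 (SE, adjusted p = 0.000356).

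Casr stood at 44.9, 32.7, 42.0, 38.2 and 36.9 CPM in RC/- D18 and at 40.8, 44.6, 38.7, 42.6 and 18.1 CPM in RC/- D53. Mouse 27 of D53 was again the lowest of its group and lay within the RC/- range. The log2 fold changes were 1.10 ± 0.19 (SE, adjusted p = 5.78e-05) and 0.96 ± 0.19 (SE, adjusted p = 0.000428).

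Bsnd stood at 129, 117, 124, 118 and 108 CPM in RC/- D18 and at 126, 130, 134, 120 and 111 CPM in RC/- D53. RC/- D18 overlapped RC/- through mice 13 and 14 of RC/-, and RC/- D53 through mouse 14 only. The log2 fold changes were 0.67 ± 0.16 (SE, adjusted p = 0.00188) and 0.73 ± 0.16 (SE, adjusted p = 0.00138).

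Umod stood at 1642, 1337, 1529, 1704 and 1634 CPM in RC/- D18 and at 1557, 1713, 1267, 1355 and 1009 CPM in RC/- D53. Of the D18 kidneys 4 of 5 lay above every RC/- kidney, and of the D53 kidneys 3 of 5. The log2 fold changes were 0.60 ± 0.13 (SE, adjusted p = 0.000637) and 0.39 ± 0.13 (SE, adjusted p = 0.0235).

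Kcnj1 stood at 295, 288, 333, 352 and 331 CPM in RC/- D18 and at 407, 431, 313, 298 and 256 CPM in RC/- D53. Its log2 fold changes against RC/- were 0.20 ± 0.14 (SE, adjusted p = 0.273) and 0.26 ± 0.14 (SE, adjusted p = 0.158). Cdh16 ranged from 1579 to 1876 CPM in RC/- D18 and from 1606 to 1786 CPM in RC/- D53, with log2 fold changes of -0.03 ± 0.07 for both (SE, adjusted p = 0.766 and 0.822). With TMM factors the sign of the Cdh16 change turned, to 0.08 for D18 and 0.06 for D53, with adjusted p of 0.430 and 0.637.

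Markers of other cells moved in these comparisons too. All 12 macrophage genes were lower in both lines than in RC/-, summing to 369 to 403 CPM in RC/- D18 and 407 to 555 CPM in RC/- D53 against 640 to 1160 CPM. Of the 10 fibroblast and matrix genes 9 were lower in D18 and 8 in D53, and all 12 proximal tubule genes were higher in both. Of the 12 collecting duct genes 8 were lower and 3 higher in D18, and 4 were lower and 3 higher in D53. The mitochondrial share was 5.38% to 6.78% in RC/- D18 and 4.88% to 5.71% in RC/- D53, above every RC/- library. Without mice 20 to 22 the D18 counts were 11 macrophage and 6 fibroblast and matrix genes lower, 12 proximal tubule genes higher, and 6 collecting duct genes lower and 3 higher. With the term for mice 20 to 27 the D53 counts were 8 macrophage genes lower, 3 proximal tubule genes higher, 2 collecting duct genes lower and 3 higher, and 0 fibroblast and matrix genes called. The part of these cells and shares in the levels of the 7 genes was not tested.

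Slc12a1, Casr and Ppp1r1a were the 3 of the 7 whose D18 and RC/- kidneys did not overlap, where 9.01% of all genes were higher without overlap. For D53 no gene of the 7 was without overlap, where 6.98% of all genes were higher without overlap. Without the RC/- D18 libraries of mice 20 to 22, which hold muscle transcripts, the D18 comparison still called 5 of the 7, with log2 fold changes of 0.52 for Umod to 1.47 for Ppp1r1a. For D53, a term for the libraries of mice 20 to 27, whose size comes from the D18 group alone, left 2 of the 7 called, Ppp1r1a at 1.29 (adjusted p = 0.0397) and Slc12a1 at 1.09 (adjusted p = 0.0482). Casr at 0.94 (adjusted p = 0.0969), Bsnd at 0.80 (adjusted p = 0.0970) and Umod at 0.27 (adjusted p = 0.552) were then not called. Umod was also not called when only the groups of the D53 comparison were fitted, or without any 1 of mice 16, 17, 23 or 24, at 0.31 to 0.37 with adjusted p from 0.0540 to 0.0850.

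**Figure D3:**
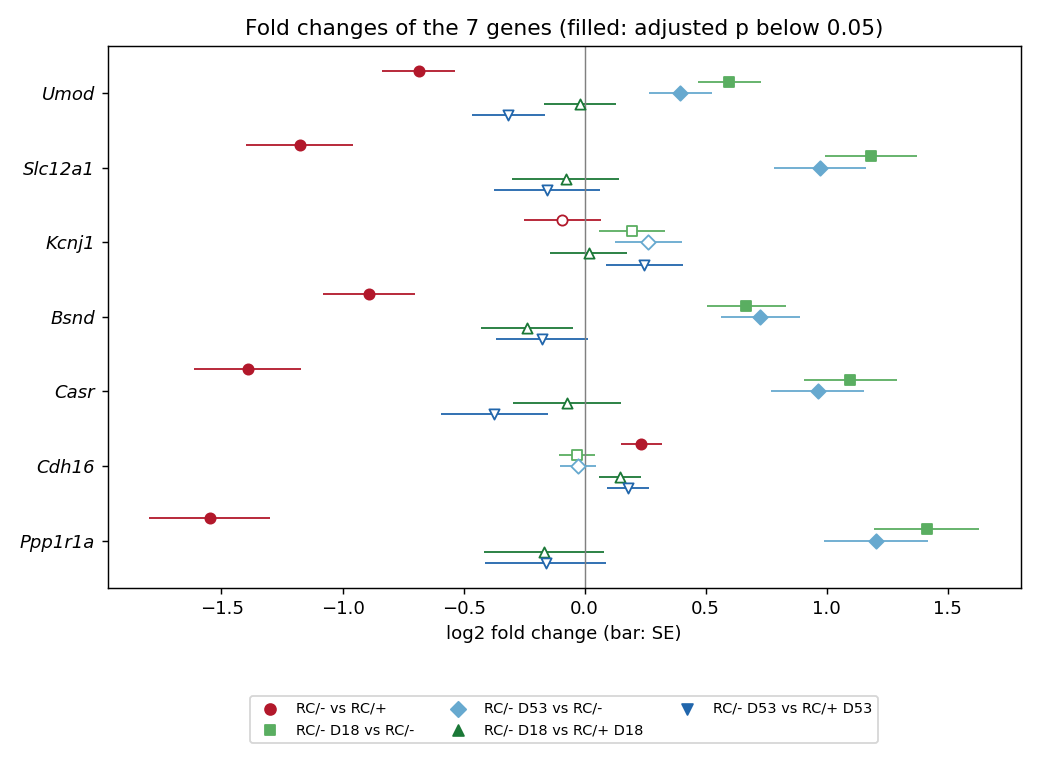
Log2 fold change (x axis) of each of the 7 genes (y axis) in 5 comparisons, with bars for the SE and filled symbols for an adjusted p below 0.05. The symbols of Ppp1r1a lay at -1.55 for RC/- against RC/+, at 1.41 and 1.20 for RC/- D18 and RC/- D53 against RC/-, and near 0 within the motif-deleted lines.

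The ratios to Slc12a1 were followed in the same way. The Cdh16 ratio was -0.50 ± 0.12 in RC/- D18 and 0.71 ± 0.40 in RC/- (SD, n = 5 each), a difference of -1.22. The Kcnj1 ratio was lower by 0.99 on the log2 scale in RC/- D18 and the Bsnd ratio by 0.51, -4.33 ± 0.13 against -3.81 ± 0.10 (SD, n = 5 each). For D53 the Cdh16 ratio was -0.29 ± 0.42 (SD, n = 5), lower by 1.001 than in RC/-. These 4 differences, all without overlap, had p = 0.00794 in a two-sided exact permutation test, the smallest that 5 against 5 can give, and 0.0357 after adjustment over the 18 tests. Without any 1 of the RC/- mice 14 to 17 or of the RC/- D18 mice 18 to 22 none of the 18 passed, the adjusted p of these differences being then 0.0714, and without RC/- mouse 13 there were 7 that passed. Without any 1 of the RC/- D53 mice 23 to 27 the Cdh16 difference for D53 did not pass (adjusted p = 0.0714, exact test). With 1 mouse fewer the smallest p that the exact test can give is larger. The groups still do not overlap, so these losses do not show dependence on a single mouse. The number of ratio tests passed was also 0 with differences of medians in place of means. The other 8 ratio tests of the motif-deleted lines did not pass, with Kcnj1 for D53 at -0.71 (adjusted p = 0.0643, exact test). Without mice 20 to 22 the D18 differences were -1.25 for Cdh16, -1.19 for Kcnj1 and -0.54 for Bsnd, each without overlap, with p = 0.0952 in the exact test, the smallest that 2 against 5 can give. All RC/- D53 libraries hold muscle transcripts, so no such value can be had for D53.

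Within each motif-deleted line the cystic genotype was set against its own controls. Between RC/- D18 and RC/+ D18 none of the 7 genes passed limma's test, the log2 fold changes ran from -0.24 for Bsnd to 0.15 for Cdh16, and 0.266% of all genes were called. No gene of the 7 had an unadjusted p below 0.05, and edgeR and DESeq2 called 0 as well. Slc12a1 had a log2 fold change of -0.08 ± 0.22 and Umod of -0.02 ± 0.15 (SE). Cdh16 lay higher in all 5 RC/- D18 kidneys than in the 3 RC/+ D18 kidneys, where 3.85% of all genes were higher without overlap.

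Between RC/- D53 and RC/+ D53 none of the 7 passed limma's test either, where 2.6% of all genes were called. Of the 7, 2 had an unadjusted p below 0.05, Umod at -0.32 ± 0.15 and Cdh16 at 0.18 ± 0.09 (log2 fold change, SE), with adjusted p of 0.364 and 0.370, and edgeR and DESeq2 called 0. The RC/+ D53 mice held 1670, 1723 and 1679 CPM of Umod, and 4 of the 5 RC/- D53 mice lay below all of them. Macrophage genes were higher in RC/- D53 for 8 of 12, summing to 407 to 555 CPM against 284 to 339 CPM in RC/+ D53. Collecting duct genes were higher for 6 of 12, summing to 2374 to 3706 CPM against 1439 to 1637 CPM, and skeletal muscle genes for 6 of 6, summing to 147 to 194 CPM against 5.78 to 7.16 CPM. The part of these cells in the values was not tested.

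The motif-deleted lines were also compared with unedited mice in the control genotype. Between RC/+ D18 and RC/+ limma called 0 of the 7, where 0.00443% of all genes were called, and 0 of the 7 had an unadjusted p below 0.05. The log2 fold changes ran from -0.22 for Casr to 0.09 for Kcnj1. Casr was at 38.7, 44.0 and 39.6 CPM in the RC/+ D18 mice, below all RC/+ mice, where 5.07% of all genes were lower without overlap. Between RC/+ D53 and RC/+ limma called 0 of the 7 and 0% of all genes, 0 of the 7 had an unadjusted p below 0.05, and the log2 fold changes ran from -0.18 for Ppp1r1a to 0.03 for Cdh16. In both comparisons edgeR and DESeq2 called 0 of the 7.

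The cystic kidneys of both lines were also set against each other. Between RC/- D53 and RC/- D18 limma called 0 of the 7, where 0.266% of all genes were called, with 0 at an unadjusted p below 0.05 and 0 by edgeR and by DESeq2. The log2 fold changes ran from -0.21 for Slc12a1 to 0.07 for Kcnj1. Slc12a1 had an SD of 615 CPM in RC/- D53 and of 144 CPM in RC/- D18, and the SD was larger in D53 for 6 of the 7 genes and smaller for Cdh16, at 85.8 against 125 CPM. The difference in spread was not tested.

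The interaction asks whether the difference between RC/- and RC/+ was itself unequal, as the difference within the edited line minus that in unedited mice. Founder line and motif deletion cannot be told apart in this term either. For D18, 4 of the 7 genes passed, Ppp1r1a at 1.38 ± 0.35 (log2, SE, adjusted p = 0.00815), Casr at 1.32 ± 0.31 (adjusted p = 0.00481), Slc12a1 at 1.10 ± 0.31 (adjusted p = 0.0158) and Umod at 0.67 ± 0.21 (adjusted p = 0.0315), where 17.1% of all genes were called. Bsnd at 0.65 ± 0.27 (adjusted p = 0.0976) missed the threshold, but was called with TMM factors (0.75, adjusted p = 0.0482) and with DESeq2 size factors (0.75, adjusted p = 0.0482). Without mice 20 to 22, Umod was no longer called, at 0.59 (adjusted p = 0.157), nor was it without any 1 of mice 4, 5, 9, 16, 17 or 21, at 0.50 to 0.67. Without mouse 9 of RC/+ D18 Slc12a1 was lost as well, at 0.99 (adjusted p = 0.0570), and 2 of the 7 remained called.

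For D53, 3 of the 7 passed the interaction test, Ppp1r1a at 1.39 ± 0.35 (log2, SE, adjusted p = 0.0121), Slc12a1 at 1.02 ± 0.31 (adjusted p = 0.0342) and Casr at 1.02 ± 0.31 (adjusted p = 0.0362), where 11.3% of all genes were called. Bsnd at 0.71 (adjusted p = 0.0859) and Umod at 0.37 (adjusted p = 0.288) did not pass. Bsnd was called with TMM factors (0.82, adjusted p = 0.0419), with DESeq2 size factors (0.81, adjusted p = 0.0448) and by DESeq2 (0.71, adjusted p = 0.0454). The term for the libraries of mice 20 to 27 left 0 of the 7 called, with Ppp1r1a at 1.48 (adjusted p = 0.112), Slc12a1 at 1.14 (adjusted p = 0.167) and Casr at 0.996 (adjusted p = 0.248). Leaving out any 1 of mice 4, 5, 6, 11, 12, 16, 23 or 24 left 1 of the 7 called, Ppp1r1a. Without mouse 10, 15 or 17 Slc12a1 was the gene lost, and without mouse 25 or 26 Casr. Over these the values without a call ran from 0.90 to 1.07 for Slc12a1 and from 0.86 to 1.07 for Casr.

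Other genes of the limb's salt transport were followed from lists of its working parts. Of 5 genes of basolateral transport 4 were lower in RC/- than in RC/+, Fxyd2 at -0.97, Kcnj16 at -0.63, Atp1b1 at -0.52 and Kcnj10 at -0.29 (log2 fold changes). Fxyd2 and Atp1b1 encode a modulator and a subunit of the sodium pump, and Kcnj16 and Kcnj10 encode potassium channels. The potassium-chloride cotransporter gene Slc12a7 was at -0.12 (adjusted p = 0.393). In whole kidney the share of the limb in the levels of these 5 genes was not tested. All 12 proximal tubule genes and 7 of 8 distal convoluted and connecting tubule genes were also lower in RC/-. All 5 basolateral genes were higher in RC/- D18 than in RC/-, and 4 were higher in RC/- D53, with Slc12a7 at 0.07 (adjusted p = 0.585). Without mice 20 to 22 the D18 count was 4, Slc12a7 being at 0.22 (adjusted p = 0.192). With the term for mice 20 to 27 the D53 count was 1, Fxyd2 at 0.85 (adjusted p = 0.0144).

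The claudins, which form the paracellular path for cations, did not move one way. Cldn10, counted over all its transcripts, was at -0.90 in RC/- against RC/+ (log2, adjusted p = 0.000127), with 212 to 231 CPM in RC/+ and 79.9 to 189 CPM in RC/-. All 12 proximal tubule genes were also lower in RC/-, and the share of the limb in the Cldn10 count was not tested. Cldn16 and Cldn19, whose products together pass magnesium and calcium, were at 0.28 (adjusted p = 0.0360) and 0.53 (adjusted p = 0.00464), and with TMM factors Cldn16 was at 0.14 and not called (adjusted p = 0.258). Cldn14, which reduces that path and is controlled by the calcium-sensing receptor, rose by 1.96 (log2, adjusted p = 0.000209) from a low level, 0.120 to 0.177 CPM in RC/+ to 0.470 to 1.06 CPM in RC/-. In RC/- D18 against RC/- Cldn10 was higher (0.84) and Cldn14 (-1.66), Cldn19 (-0.53) and Cldn16 (-0.36) were lower. In RC/- D53 Cldn10 was higher (0.74) and Cldn14 lower (-0.99), and Cldn19 at -0.23 and Cldn16 at -0.14 did not pass the test. Without mice 20 to 22 Cldn16 was not called for D18, at -0.23 (adjusted p = 0.141). With the term for mice 20 to 27 neither Cldn10, at 0.74 (adjusted p = 0.0767), nor Cldn14, at -1.69 (adjusted p = 0.0636), was called for D53.

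Among 9 regulators of salt entry, 3 were lower and 3 higher in RC/- than in RC/+. The largest changes were those of Klhl3 (-0.97), a ubiquitin ligase adaptor for WNK kinases, Wnk1 (-0.96), 1 of these kinases, and Nedd4l (0.77), a ubiquitin ligase that acts on sodium transport proteins. With TMM factors 4 were lower and 2 higher. Of 5 hormone receptors 3 were lower and none higher, Gcgr (-1.75) for glucagon, Ptger3 (-1.34) for prostaglandin E2 and Pth1r (-0.997) for parathyroid hormone, of which Gcgr and Pth1r are also expressed outside the limb. Of 6 transcription factors 3 were lower and 2 higher, the largest changes being those of Tfcp2l1 (0.76), Irx1 (-0.63) and Pax8 (0.60). In whole kidney the share of the limb in the levels of these regulators, receptors and transcription factors was not tested.

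Of 6 other limb transcripts 4 were lower and 1 higher. Egf, the precursor of epidermal growth factor, which the distal convoluted tubule also makes, had 1530 to 1834 CPM in RC/+ and 139 to 364 CPM in RC/-, and changed by -2.98 ± 0.31 on the log2 scale (SE, adjusted p = 5.64e-08). Tmem72 was at -1.03 and Hpn at -0.91. Of 3 macula densa genes 1 was lower, Nos1 at -1.28 (adjusted p = 0.00163), from 2.41 to 3.85 CPM in RC/+ to 0.630 to 2.82 CPM in RC/-, with overlap.

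In neighbouring segments, 7 of 8 genes of the distal convoluted and connecting tubule were lower in RC/- and 1 was higher, with a list median of -1.54 against -0.89 for the 7 limb genes. Pvalb (-2.18), Calb1 (-2.14) and Klk1 (-1.90) moved most. Of 12 collecting duct genes 8 were higher and 3 lower, with Slc4a1 of intercalated cells at -2.28 and Hsd11b2 and Fxyd4 of principal cells at 1.98 and 1.87. The collecting duct list summed to 3133 to 5509 CPM in RC/- against 1590 to 1879 CPM in RC/+. Kcnj1 and Cdh16 are also expressed in the collecting duct, and expression of the other members outside the limb was not examined. The part of cells outside the limb in the levels of the 7 genes was not tested.

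**Figure D4:**
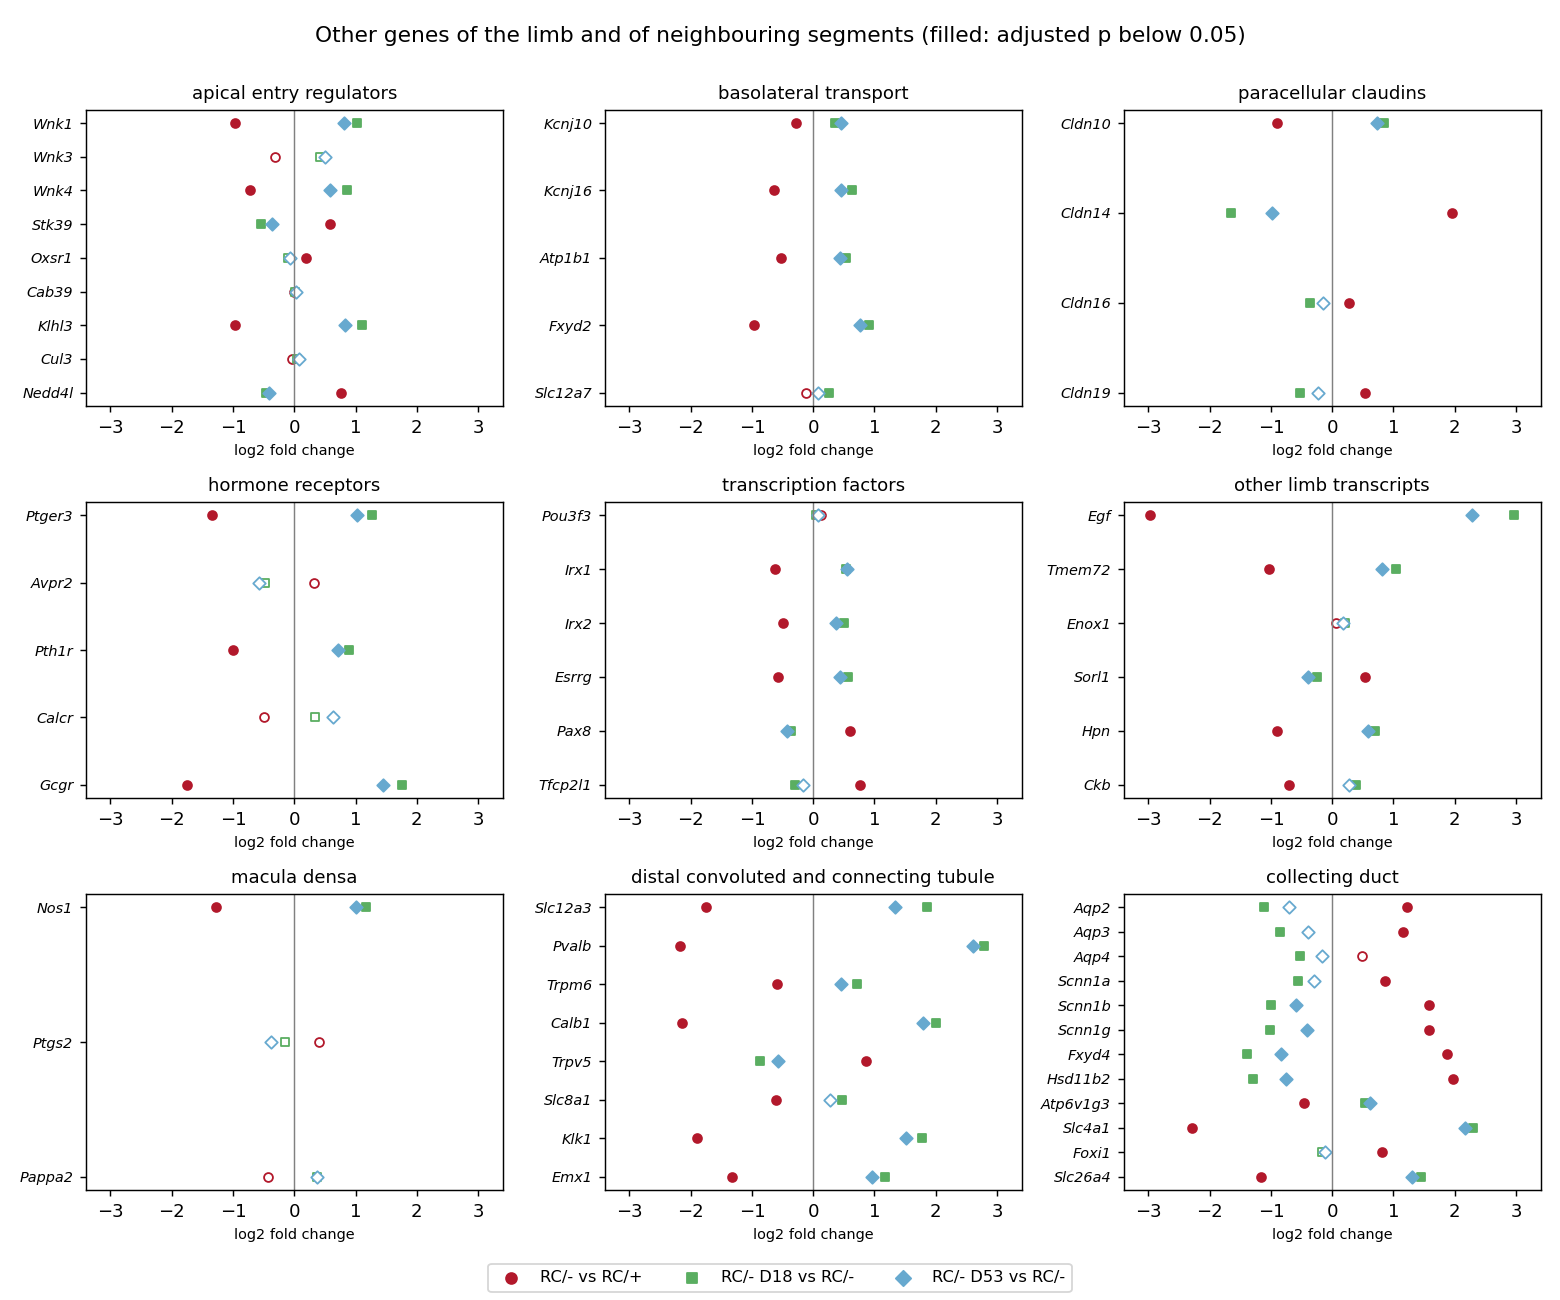
Log2 fold change (x axis) of the other genes of the limb and of neighbouring segments (y axis, 1 panel a list) for RC/- against RC/+ (circles), RC/- D18 against RC/- (squares) and RC/- D53 against RC/- (diamonds), the last 2 sharing the RC/- kidneys, with filled symbols for an adjusted p below 0.05. Basolateral transport genes lay to the left of 0 for RC/- against RC/+, from -0.97 for Fxyd2 to -0.12 for Slc12a7, while the claudins lay on both sides, from -0.90 for Cldn10 to 1.96 for Cldn14.

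Across the 24 libraries the 7 genes did not vary as 1 block. Pearson's r of log2 CPM was 0.970 between Slc12a1 and Ppp1r1a and 0.895 after each group's mean was removed, and 0.480 and 0.549 between Slc12a1 and Kcnj1. Casr and Ppp1r1a correlated at 0.782 over all libraries and at 0.218 with group means removed. Cdh16 had an r of -0.147 with Slc12a1 over all libraries and of 0.505 with group means removed. The libraries share groups, depth and tissue makeup, so these are descriptions.

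Outside the 7, the genes with a pattern most like their mean standardised profile over the 24 libraries were Slc9a3 (r = 0.948), Fads6 (0.947), Abca4 (0.942), Abca13 (0.942), Bdh1 (0.941) and Papss2 (0.941). Of these Slc9a3 encodes the sodium-proton exchanger of the luminal membrane in the proximal tubule and the thick ascending limb. With group means removed the r of these 6 ran from 0.864 for Papss2 to 0.938 for Abca13. Within the 7, the r with that profile, of which each is itself a part, ran from 0.003 for Cdh16 to 0.964 for Slc12a1.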

How the data were processed

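Total RNA was taken from flash-frozen whole kidneys with a Qiagen miRNEASY kit. Per the labels and the study's methods the authors trimmed reads with Trim Galore 0.6.3 and counted them per gene with STAR 2.5.3a on GRCm38 with Ensembl release 94, and they deposited raw counts. The strand setting is not given in the sources used here, so reads of overlapping antisense genes cannot be told apart. Samples were grouped by the labels. Counts were turned into log2 CPM by total counts with a prior count of 2 and tested in limma 3.58.1 (trend, R 4.3.3), with 1 mean per group over 24 libraries in 22570 genes, two-sided, with Benjamini-Hochberg adjustment over all genes and a threshold of 0.05. Genes without a symbol stayed in the table and took at most 0.0261% of a library's counts. Alternatives were TMM and DESeq2 size factors, edgeR 4.0.16 quasi-likelihood, DESeq2 1.42.0, no filter, fewer groups, covariates and leaving out each library. Sex, used as a covariate, was read from Xist and Y-linked counts, with 14 females and 10 males. Ratios to Slc12a1 used a pseudocount of 0.5 and exact permutation tests. The fit was also run on simulated counts with a fixed dispersion and few changed genes, a simpler setting than these data, so that run does not test the calls made here.

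The members and lists were chosen with earlier results of these data known. All 7 genes are named, and of each list the 3 called genes with the largest change in RC/- against RC/+, with every claudin and basolateral gene. A few genes of the lists are not reported here, and counts are over the others. Replicates differed by more than sampling noise, with chi-square per degree of freedom from 8.45 to 48.2 in 39 pairs. At a depth of 20.4 M to 30.8 M counts the lowest of the 7 genes, Casr, had 275 to 1381 counts in a library, and p-values measure the spread between mice. Exon lengths, coordinates and overlaps come from GENCODE M21, which held 54409 of the IDs.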

Additional observations from a re-analysis of the deposited data

Results flagged for a closer look

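In RC/- D53, mouse 27 had 18.1 CPM of Casr, far below the 38.7 to 44.6 CPM of the other 4 mice, a gap that passed Dixon's 95% limit in 1 of 21 sets tested, 7 genes in 3 groups of 5 mice. Chance flags about 1 in 20 groups. Without mouse 27 the log2 fold change of Casr against RC/- was 1.20 in place of 0.96.

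By the interaction term, the difference between RC/- and RC/+ was not the same in D18 as in unedited mice for 4 genes. The term was 1.38 for Ppp1r1a, 1.32 for Casr, 1.10 for Slc12a1 and 0.67 for Umod on the log2 scale. In D53 it was changed for 3 genes, by 1.39 for Ppp1r1a, 1.02 for Casr and 1.02 for Slc12a1. Both terms share the RC/+ and RC/- kidneys.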

How the results depend on the processing

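The counts of the 7 genes called in RC/- against RC/+ (6 in all) and in RC/- D18 against RC/- (5) stayed within 5 to 6 and at 5 under every alternative run, and the 5 comparisons with 0 called stayed at 0. No direction of a called value turned. For RC/- D53 against RC/- the count was 2 with a term for the libraries of mice 20 to 27, and 4 to 6 without 1 library. The interaction count for D18 (4) was 5 with TMM factors or DESeq2 size factors, 3 with no filter, with the term for mice 20 to 27 or without mice 20 to 22, and 2 to 5 without 1 library. That for D53 (3) was 4 with TMM factors, DESeq2 size factors or DESeq2, 1 with no filter, 1 with only the groups of the comparison, 0 with the term for mice 20 to 27, and 1 to 4 without 1 library. The number of ratio tests passed (4) was 0 with medians, 0 without mice 20 to 22, and 0 to 7 without 1 library. Leaving out mice raises the smallest p of the exact test, so losses from it do not show dependence on those mice. Cdh16 in RC/- against RC/+ was not called with TMM factors, DESeq2 size factors, edgeR, DESeq2, no filter or only the groups of the comparison. Leaving out mice 20 to 22, and the term for mice 20 to 27 in the gene lists, were chosen after seeing the data. Where no construction of the alternative shows it, the cause was not tested. No paired analysis was possible because the mouse numbers in the labels are unique and no 2 groups share any. With 3 mice in each control group, no exact test of a single value against 5 can go below 0.0357, and levels in whole kidney do not separate cell number from RNA per cell.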
